A study of Mus musculus with 141 samples.

Results

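The 10 genes described here encode parts of the antigen presentation machinery and surface or secreted proteins of monocytes: B2m, H2-K1, H2-D1, Cd74, H2-Aa, H2-Ab1, Ly86, Ly6c2, F13a1 and Igsf6. They were taken as a fixed list of names, chosen with earlier results of these data known. All 10 were matched to Ensembl identifiers among the 46078 mouse gene rows. Their transcripts were counted in single basophil/mast cell progenitors (BMCP) and single granulocyte/monocyte progenitors (GMP) of mouse bone marrow. BMCP were sorted as live, lineage-negative, cKit+, Sca1- cells that stained high for integrin beta7 and CD16/32. GMP were sorted as live, lineage-negative, cKit+, Sca1-, CD34+, CD16/32-high cells that fell outside the BMCP gate. Both populations came from 3 female C57BL/6 mice that carried no named allele or treatment, and their age was not in the labels used here. No label says which mouse a cell came from, so each population is 1 sample without replicates, no test was made, and every interval given covers counting error only.

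Class I molecules pair a heavy chain, here H2-K1 or H2-D1, with beta-2 microglobulin, the product of B2m, and show peptides made inside the cell to CD8+ T cells. Most nucleated cells carry them. Class II molecules, here the alpha chain H2-Aa and the beta chain H2-Ab1, are assembled with the invariant chain Cd74 and are mainly found on dendritic cells, macrophages and B cells. The other 4 genes are known from the monocyte branch: Ly86 encodes the partner protein of the receptor Cd180, Ly6c2 the Ly6C antigen of inflammatory monocytes, F13a1 the A subunit of coagulation factor XIII, and Igsf6 a membrane protein of the immunoglobulin superfamily.

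The promoters of class I and class II genes are known to share a control module, in which a cyclic AMP response element (core TGACG) stands near a Y box (CCAAT, read as ATTGG on the other strand). RefSeq promoter windows on GRCm38.p6, of 250 bases before to 50 bases after a start, were found for 8 of the 10 genes, all but Cd74 and H2-Ab1. The 4 stretches below, 120 bases before to 50 after the start and 5′ to 3′ along the gene, are shown because they carry this pair of letters, and TGACG and CCAAT are in capitals on either strand.
B2m (chr2:122147567-122147736, plus strand): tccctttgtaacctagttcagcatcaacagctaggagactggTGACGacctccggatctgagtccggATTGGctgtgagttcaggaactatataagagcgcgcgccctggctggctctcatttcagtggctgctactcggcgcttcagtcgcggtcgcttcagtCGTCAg
H2-K1 (chr17:34000298-34000467, minus strand): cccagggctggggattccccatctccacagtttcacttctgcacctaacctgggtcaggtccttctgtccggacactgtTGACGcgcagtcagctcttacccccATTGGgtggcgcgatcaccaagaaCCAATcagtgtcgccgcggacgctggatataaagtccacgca
H2-D1 (chr17:35262974-35263143, plus strand): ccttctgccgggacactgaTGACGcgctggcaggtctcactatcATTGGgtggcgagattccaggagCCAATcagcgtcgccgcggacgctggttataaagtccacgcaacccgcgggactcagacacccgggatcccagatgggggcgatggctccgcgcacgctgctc
H2-Aa (chr17:34287774-34287943, minus strand): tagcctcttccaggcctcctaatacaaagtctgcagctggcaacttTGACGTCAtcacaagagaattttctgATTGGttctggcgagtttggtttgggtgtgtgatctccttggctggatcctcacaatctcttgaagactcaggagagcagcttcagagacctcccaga
In each of the 4 promoters, ATTGG followed TGACG on the strand of the gene. The first bases of the pair were 25 bases apart in B2m, H2-K1 and H2-D1, and 26 bases apart in H2-Aa. In H2-Aa the TGACG overlaps its own reverse complement, and in B2m a further reverse complement lies after the start. The H2-D1 window is set on a RefSeq start 364 bases from the start of the gene in GENCODE. Over all 32851 windows, TGACG occurred in 20.8% and CCAAT in 37.4%, on either strand, and both in 7.73%. A spacing range of 20 to 30 bases between first bases, chosen after the promoters had been read, held the ordered pair in 82 windows, or 0.250%. No window of Ly86, Ly6c2, F13a1 or Igsf6 held the ordered pair. Among the other listed genes with a window, it was found in 2 of 6 further class I genes, H2-Q7 and H2-M3, in 0 of 11 class I pathway genes and in 0 of 12 class II pathway genes.

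Another word was found in the promoter of Ly6c2. Its stretch is shown because it holds GAGGAAGT, letters bound by the myeloid factor PU.1, in capitals at 2 places.
Ly6c2 (chr15:75111922-75112091, minus strand): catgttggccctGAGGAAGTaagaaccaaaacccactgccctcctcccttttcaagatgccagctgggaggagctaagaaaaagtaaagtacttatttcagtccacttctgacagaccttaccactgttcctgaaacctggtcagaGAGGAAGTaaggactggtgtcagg
GAGGAAGT, searched on both strands, stood 108 bases before and 26 bases after the start of Ly6c2, and it occurred in 3.20% of all windows. Of the other members with a window, F13a1 held it at 14 bases after a second annotated start, and not in the window of its first start. A match is a description of letters, and no binding was measured.

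After filtering, 89 of 94 BMCP held 84242320 nuclear-encoded counts in all (median 893037 per cell, range 96129 to 2416630), and 41 of 47 GMP held 55520835 (median 1309887, range 130191 to 3688848). The median share of spike-in reads was 11.3% over BMCP and 5.92% over GMP. All 5 basophil and mast cell markers were at least 2-fold higher in BMCP, and all 5 neutrophil markers were lower. Itgb7, among the basophil and mast cell markers, encodes integrin beta7, for which BMCP were sorted. Its difference and its part in the sum are therefore not independent of the sort. Summed over Gzmb, Cpa3, Gata2, Ms4a2 and Itgb7, the basophil and mast cell markers reached a median per cell of 13434 CPM in BMCP (counts per 1000000 nuclear-encoded counts; range 1140 to 47552), against 279 CPM in GMP (range 2.60 to 7717). Summed over Mpo, Elane, Prtn3, Ctsg and Ms4a3, the neutrophil markers reached 8.13 CPM in BMCP (range 1.05 to 2921), against 46381 CPM in GMP (range 543 to 101294).

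The 10 genes fell into 3 patterns. B2m, H2-K1 and H2-D1 had reads in every kept cell of both populations at near-equal levels. The class II chains had reads in a minority of cells, and Cd74 had none. Ly86, Ly6c2, F13a1 and Igsf6 were nearly absent from BMCP and higher in GMP by summed reads. Within GMP, Ly86 and F13a1 had reads in a minority of cells (16 and 19 of 41), as H2-Ab1 did (16 of 41). Of 14554 genes with at least 1 CPM in either population, 25.8% were at least 2-fold higher in BMCP and 21% at least 2-fold lower, with a median log2 ratio of 0.04. The ratio is the log2 of (summed CPM + 1) in BMCP over GMP, and the 1 added understates changes of low genes. Of the 9 members at that level, 0 were at least 2-fold higher in BMCP, 6 were at least 2-fold lower and 3 lay within 2-fold, with a median of -2.99. Without GMP 30, the cell that held every H2-Aa read of its population, the count lower was 5. Since the members were chosen with earlier results of these data known, their counts beside all genes are not independent of that choice.

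**Figure D1:**
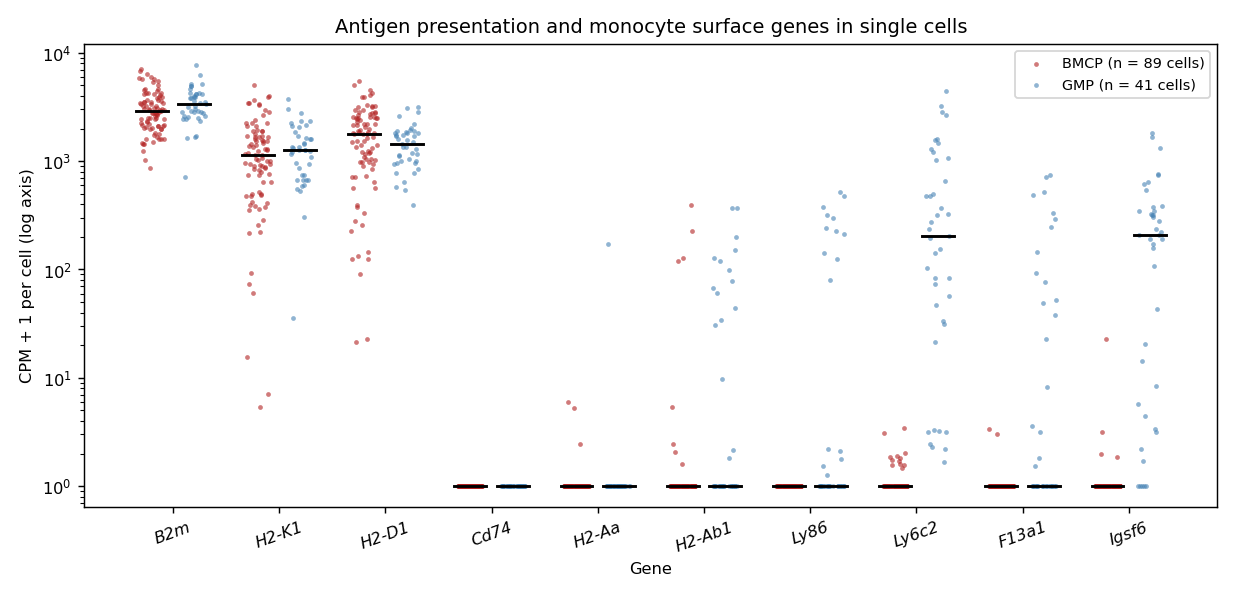
Level of each of the 10 genes in every kept cell, as CPM + 1 on a log axis, with 89 BMCP in red on the left and 41 GMP in blue on the right of each gene. Points are single cells and black lines are medians over cells. The clouds of B2m, H2-K1 and H2-D1 overlap between the populations, all cells sit at 1 for Cd74, and Ly6c2 spans 0.681 to 4398 CPM over GMP while no BMCP exceeds 2.44 CPM.

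B2m (ENSMUSG00000060802, chr2:122147686-122153083, plus strand, GENCODE vM21 on GRCm38) was the most abundant member in both populations. BMCP had 3109 CPM (95% Poisson limits 3097 to 3121) and GMP had 3474 CPM (3459 to 3490), a log2 ratio of -0.16. Relative to spike-ins, where the median over all genes was -0.79, it was -1.03 and B2m joined the members at least 2-fold lower, 7 in all. Over cells, B2m ranged from 855 to 7152 CPM around a median of 2910 CPM in BMCP, and from 718 to 7707 CPM around 3363 CPM in GMP. The ranges overlap nearly in full. The coefficient of variation over cells was 43.6% in BMCP and 37.1% in GMP, below that of both heavy chains in each population.

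H2-K1 (ENSMUSG00000061232, chr17:33996017-34000347, minus strand), which encodes the heavy chain of H2-K, had 1383 CPM in BMCP (limits 1375 to 1390), against 1466 CPM in GMP (1456 to 1476), a log2 ratio of -0.08. Single cells spread widely. H2-K1 ranged from 4.35 to 5010 CPM around a median of 1148 CPM in BMCP, and from 34.3 to 3782 CPM around 1270 CPM in GMP. Its coefficient of variation was 76.9% in BMCP and 56.9% in GMP. The low end was made by a few cells. BMCP 35, BMCP 33 and BMCP 8 held 4.35, 6.10 and 14.6 CPM of H2-K1, on 4, 5 and 6 reads, and the same cells held 2718, 2217 and 2153 CPM of H2-D1. In GMP the lowest cell was GMP 15, with 34.3 CPM of H2-K1 and 644 CPM of H2-D1.

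H2-D1 (ENSMUSG00000073411, chr17:35262730-35267499, plus strand), which encodes the heavy chain of H2-D, had 1971 CPM in BMCP (limits 1961 to 1980), against 1561 CPM in GMP (1550 to 1571), a log2 ratio of 0.34. Its sign turns with the scaling: relative to spike-ins the ratio was -0.53. H2-D1 ranged from 20.4 to 5516 CPM around a median of 1789 CPM in BMCP, and from 397 to 3188 CPM around 1451 CPM in GMP, so the populations overlap and the low tail lies in BMCP. BMCP 4 and BMCP 5 were the lowest, with 20.4 and 22 CPM of H2-D1 on 6 and 10 reads, and held 1190 and 1547 CPM of H2-K1. BMCP 5 also held the highest B2m of the kept BMCP, 7152 CPM. The coefficient of variation of H2-D1 was 66% in BMCP and 44.6% in GMP.

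The balance of the heavy chains was broader over BMCP than over GMP as a range. Extremes can widen with the number of cells, here 89 BMCP against 41 GMP. The log2 ratio of H2-D1 to H2-K1 within a cell had a median of 0.43 in BMCP, with quartiles of -0.51 and 1.23 and extremes of -6.00 and 8.96. In GMP its median was 0.08, with quartiles of -0.37 and 0.62 and extremes of -1.16 and 4.19. H2-D1 exceeded H2-K1 in 54 of 89 BMCP (60.7%, exact 95% limits 49.7 to 70.9) and in 22 of 41 GMP (53.7%, 37.4 to 69.3). Summed reads of H2-D1 over H2-K1 gave a ratio of 1.43 in BMCP and 1.06 in GMP. The ratio was 1.41 in BMCP numbered 1 to 47 and 1.44 in those numbered 48 to 94. Fewer counts per cell in BMCP, with a median of 893037 against 1309887 in GMP, go with this wider spread, and their part in it was not tested. Of the 50-base words of the exons of H2-K1 and H2-D1, 9.63% and 12.8% also occur in other genes, most often in H2-Q10 for H2-K1 and in H2-Q1 for H2-D1, so a share of their reads could have been left uncounted or placed elsewhere.

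Within a population, correlations of the class I members over cells were near 0 to moderate. Over 41 GMP, which carry the same sort label and differ in depth, log2(CPM + 1) of B2m and H2-D1 had a Pearson r of 0.47, of H2-K1 and H2-D1 of 0.36, and of B2m and H2-K1 of 0.15. Over 89 BMCP, B2m and H2-K1 had r = 0.41 (Spearman 0.42), B2m and H2-D1 0.07, and H2-K1 and H2-D1 0.04. Among the 4538 genes compared over BMCP, the 3 most like B2m were S100a10, H2-K1 and Mrpl51, each at r = 0.41. In GMP, among 6772 genes, H2-D1 was the second most like B2m, after Hnrnph1 at r = 0.48.

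Other genes of the class I pathway were called at about the share of all genes or below it. Of 14 listed, all at 1 CPM or more, 2 were at least 2-fold higher in BMCP and 3 at least 2-fold lower, against 25.8% and 21% over all genes, and 9 were within 2-fold, with a median log2 ratio of -0.44. Relative to spike-ins, 1 was higher and 10 were lower. The peptide transporter subunit Tap1 stood at 205 CPM in BMCP, against 309 CPM in GMP, and its partner Tap2 at 227 CPM in BMCP, against 211 CPM in GMP. The immunoproteasome subunit Psmb8 stood at 418 CPM in BMCP, against 586 CPM in GMP. The 3 lower genes all encode protein folding factors of the endoplasmic reticulum, which have wider duties than class I loading. Calr, calreticulin, had 249 CPM in BMCP, against 2523 CPM in GMP (log2 -3.33). Pdia3 had 538 CPM in BMCP, against 1404 CPM in GMP (log2 -1.38). Canx, calnexin, had 316 CPM in BMCP, against 636 CPM in GMP (log2 -1.01). Canx came within 2-fold once GMP 46 alone was removed (612 CPM in GMP). With BMCP 45 removed as well (291 CPM in BMCP), it stayed at least 2-fold lower.

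Higher in BMCP were Nlrc5, known as a transactivator of class I genes, and Tapbpl, a peptide editor of class I molecules. Nlrc5 had 50.7 CPM in BMCP (27.7 CPM once BMCP 50 is removed) and 8.92 CPM in GMP (log2 2.38). Tapbpl had 45.4 CPM in BMCP, against 18 CPM in GMP (log2 1.29). It came within 2-fold once BMCP 50 alone was removed (36.9 CPM in BMCP) and with the mean of the cells' CPM (log2 0.69). With GMP 9 removed as well as BMCP 50 (14.1 CPM in GMP), Tapbpl stayed at least 2-fold higher. Both were thinly spread: Nlrc5 had a read in 23 BMCP and 12 GMP, and Tapbpl in 33 BMCP and 13 GMP. Reads of 6 further class I genes of the H2-Q, H2-T and H2-M groups are uncertain, since they share sequence with each other and with the members. Of these 6, 4 were at least 2-fold higher in BMCP and 1 lower, against 25.8% and 21% over all genes. Of the 4, H2-Q6 and H2-T22 stood at 84.7 and 44.2 CPM in BMCP, against 41.4 and 20.5 CPM in GMP, and came within 2-fold once the BMCP with most of their reads was removed (65 and 31.9 CPM in BMCP). H2-T23, the nonclassical Qa-1 chain, had 262 CPM in BMCP, against 109 CPM in GMP (log2 1.26), with a read in 87 BMCP and 38 GMP. H2-Q7 had 102 CPM in BMCP, against 38.7 CPM in GMP (log2 1.38), and H2-M3, which presents formylated peptides, had 14.7 CPM in BMCP, against 59.1 CPM in GMP (log2 -1.94).

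**Figure D2:**
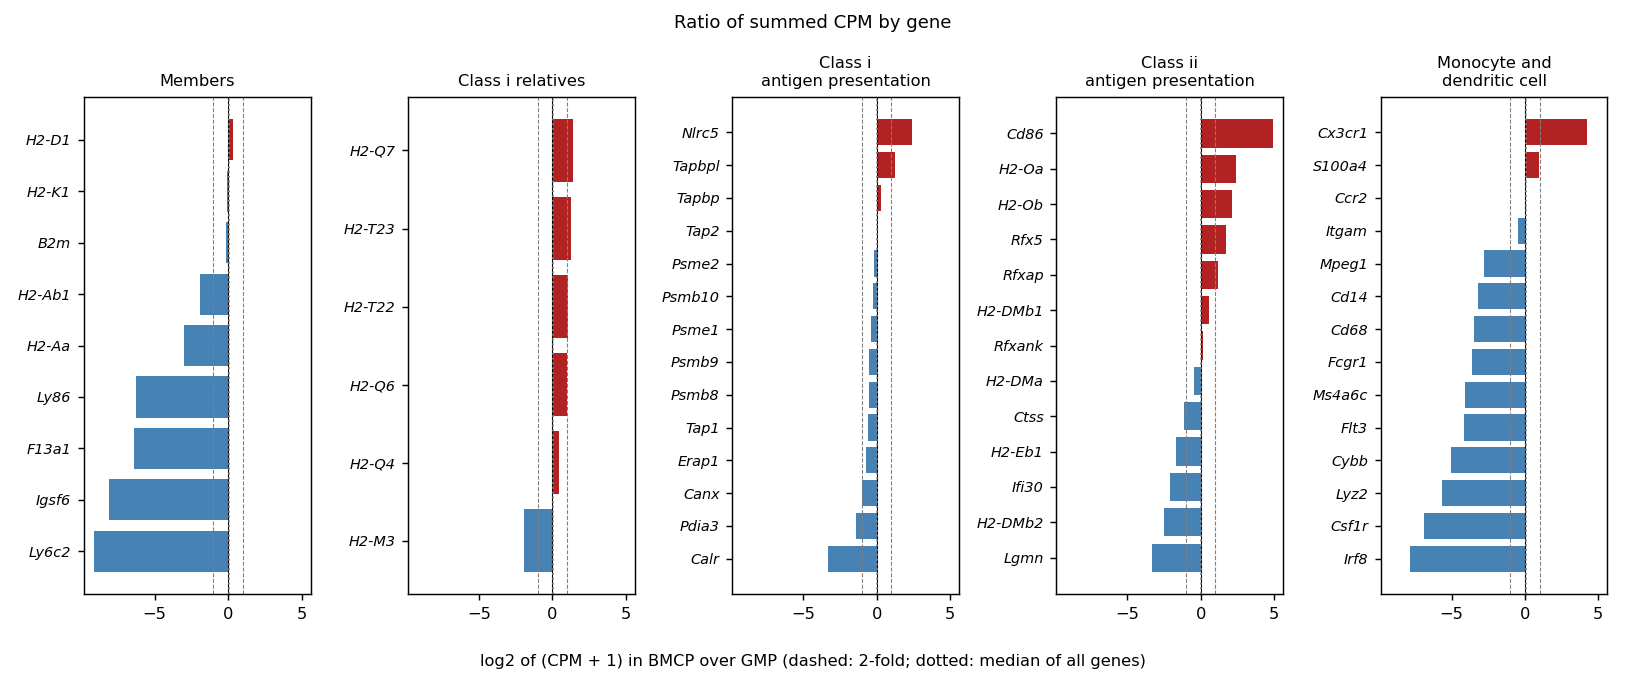
Log2 ratio of (summed CPM + 1) in BMCP over GMP for the 9 members with at least 1 CPM and for the genes of 4 lists, with red bars higher in BMCP and blue bars lower. Dashed lines mark 2-fold and the dotted line the median of all genes at 0.04. The class I members lie near 0 and Ly6c2 reaches -9.13.

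Cd74 (ENSMUSG00000024610, chr18:60803848-60812652, plus strand) had no read in any cell, kept or left out. The upper Poisson limit of that zero was 0.0438 CPM over the kept BMCP and 0.0664 CPM over the kept GMP. A gene row with no read was common, at 21695 of 46041 nuclear-encoded rows. The invariant chain was thus listed at 0 also in the cells that held reads of the class II chains it assembles with. No 50-base word of its exons occurs in another annotated gene and 0.715% of its exon bases overlap another gene, Mir5107. No source used here gives the annotation release behind the counts, and the part of gene models in this zero was not tested.

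H2-Aa (ENSMUSG00000036594, chr17:34282744-34287823, minus strand), the class II alpha chain, rested on single cells. BMCP held 9 reads in all (0.107 CPM), with 4 in BMCP 74, 3 in BMCP 85 and 2 in BMCP 29. GMP held 434 reads (7.82 CPM), every one of them in GMP 30, at 171 CPM. The log2 ratio of -2.99 therefore describes 1 cell, and without GMP 30 it was 0.15.

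H2-Ab1 (ENSMUSG00000073421, chr17:34257689-34269419, plus strand), the class II beta chain, had reads in more cells than its partner. It stood at 9.5 CPM in BMCP (limits 8.85 to 10.2) and 39.3 CPM in GMP (37.7 to 41), so that the BMCP level was 24.1% of the GMP level (exact limits 22.2 to 26.2), a log2 ratio of -1.94. Of the kept BMCP, 8 had a read: BMCP 36 held 395 CPM, BMCP 10 held 225 CPM, BMCP 62 held 128 CPM, BMCP 11 held 120 CPM, and the remaining 4 cells had 1 read each. Of the kept GMP, 16 had a read, and the highest were GMP 4 at 366 CPM, GMP 15 at 365 CPM and GMP 30 at 200 CPM. The levels of positive cells overlap between the populations, and the share of positive cells is higher in GMP. After each cell was thinned to 200000 reads, at least 10 reads of H2-Ab1 were found in 4 of 86 BMCP (4.65%, exact limits 1.28 to 11.5) and 10 of 40 GMP (25%, 12.7 to 41.2). The BMCP level differed by block of cell numbers: it was 19.4 CPM in numbers 1 to 47 (log2 -0.98 against GMP) and 3.49 CPM in numbers 48 to 94 (log2 -3.17).

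H2-Ab1 was set beside basophil and mast cell transcripts, of which every kept BMCP held at least 1140 CPM in sum. The 4 BMCP above 100 CPM of H2-Ab1 were BMCP 10, BMCP 11, BMCP 36 and BMCP 62. Their summed basophil and mast cell markers were 33207, 36937, 47552 and 22307 CPM, all above the BMCP median of 13434 CPM. Their summed monocyte markers (Csf1r, Irf8, Ccr2, Ms4a6c and Fcgr1) were 274, 0, 549 and 0.702 CPM, against a BMCP median of 0.728 CPM. Over 89 BMCP, H2-Ab1 had r = 0.27 with the basophil and mast cell sum (Spearman 0.18). With the monocyte sum it had 0.23 (Spearman 0.19), and with the macrophage sum 0.31 (Spearman 0.06). Among the 40 thinned GMP, 8 of the 10 with at least 10 reads of H2-Ab1 also had 10 reads of Cpa3, the mast cell carboxypeptidase, which 21 of the 40 GMP had. For Gata2 this was 6 of the 10, against 18 of the 40 GMP. None of these 10 was among the 11 GMP with at least 10 reads of Ly86. With all reads counted, GMP 36 held both, at 43.5 CPM of H2-Ab1 and 480 CPM of Ly86. Over all 41 GMP, H2-Ab1 had r = -0.31 with Ly86, -0.37 with Ly6c2 and 0.32 with Cpa3. With Gata2 its r was 0.18, and with the summed basophil and mast cell markers 0.25. The r of H2-Ab1 was 0.43 with the summed erythroid markers and 0.32 with the summed macrophage markers. GMP 30, the cell with both chains, held 2699 CPM of Cpa3, 2144 CPM of Gata2 and 2313 CPM of Ms4a2, the IgE receptor beta chain, beside 1117 CPM of Mpo. The 3 genes most like H2-Ab1 over GMP were Rnf123, Phf21a and Rbl2, at r = 0.62, 0.60 and 0.58.

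Cells that are known to carry class II were looked for by their markers. Of the B cell genes, Ms4a1 had no read in either population, and Cd79b, a subunit of the B cell receptor, had 57.1 CPM in the summed BMCP cells, against 101.6 CPM in the summed GMP cells. Cd79a and Pax5 had 2.75 and 0.0594 CPM in the summed BMCP cells, against no read in GMP. Of the BMCP above 100 CPM of H2-Ab1, BMCP 10 held 581 CPM of Cd79b, and BMCP 11, BMCP 36 and BMCP 62 held 0. The GMP highest in H2-Ab1, GMP 4, GMP 15 and GMP 30, held 0, 259 and 234 CPM of Cd79b. Over 41 GMP, H2-Ab1 had r = -0.23 with the summed B cell markers. The dendritic cell list had a median of 0 CPM in both (0 to 669 in BMCP, 0 to 294 in GMP), with Siglech at 0 in both and Xcr1 at 0 in GMP. Its highest BMCP was BMCP 85, which held 3 reads of H2-Aa. The other BMCP with H2-Aa reads, BMCP 74 and BMCP 29, held 0 CPM of the list, as did GMP 30. The macrophage list had a median of 0 CPM in both, ranging up to 148 CPM in BMCP, against 1396 CPM in GMP, with C1qc at 0 in BMCP and Adgre1 at 0 in GMP. Its highest cell in BMCP was BMCP 36, at 148 CPM of the list and 395 CPM of H2-Ab1, and the next, BMCP 1 and BMCP 72 at 39.9 and 39.4 CPM of the list, had no read of H2-Ab1. The highest in GMP were GMP 29, GMP 4 and GMP 27, at 1396, 207 and 195 CPM of the list, with 128, 366 and 0.804 CPM of H2-Ab1. The part of B cell, dendritic cell or macrophage RNA in these cells was not tested.

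Around the class II chains, pathway genes went both ways, as genes did in general. Of 16 listed genes, 13 reached 1 CPM. Of these, 5 were at least 2-fold higher in BMCP and 5 at least 2-fold lower, against 25.8% and 21% over all genes. The other 3 were within 2-fold, and the median log2 ratio over the 13 was 0.15. Relative to spike-ins, 3 were higher and 6 lower, and 3 were lower without each gene's highest cell. Ciita, the master regulator of class II genes, and the costimulatory genes Cd80 and Cd40 had no read. The peptide-loading chain H2-DMa stood at 162 CPM in BMCP, against 225 CPM in GMP. The chains of its inhibitor H2-O were both higher in BMCP. H2-Oa had 90.9 CPM in BMCP, against 16.8 CPM in GMP (log2 2.37), with a read in 54 BMCP and 8 GMP. H2-Ob had 150 CPM in BMCP, against 33.1 CPM in GMP, a log2 ratio of 2.15 (16.2 CPM in GMP once GMP 30 is removed), with a read in 57 BMCP and 9 GMP. The costimulatory ligand Cd86 had 29.1 CPM in BMCP, in 11 cells, and no read in GMP. Nearly all of its reads lay in BMCP 58, BMCP 63, BMCP 66 and BMCP 72, at 420, 366, 554 and 529 CPM. No other BMCP held more than 13.9 CPM of Cd86. BMCP numbered 48 to 94, which include those cells, had 46.6 CPM of Cd86. In BMCP numbered 1 to 47 it stood at 0.189 CPM, where the 2-fold difference was lost.

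Also higher in BMCP were 2 subunits of the RFX complex that binds class II promoters. Rfx5 had 38.1 CPM in BMCP (30.9 CPM once BMCP 15 is removed), against 10.8 CPM in GMP (log2 1.73). With the mean of the cells' CPM its log2 ratio was 1.05. The share of cells with Rfx5 was not higher in BMCP. At least 2 reads after thinning were found in 11.6% of BMCP, against 15% of GMP. Rfxap had 5.76 CPM in BMCP (3.69 CPM once BMCP 74 is removed) and 2.07 CPM in GMP (log2 1.14). The 5 lower genes were H2-DMb2, H2-Eb1, Ctss, Ifi30 and Lgmn, each with a read in at most 9 BMCP and 12 GMP. The class II beta chain H2-Eb1 had 1.38 CPM in BMCP and 6.65 CPM in GMP. Its direction turned once GMP 45 alone was removed (0.850 CPM in GMP). With BMCP 57 removed as well (0.304 CPM in BMCP), H2-Eb1 stayed lower in BMCP but within 2-fold. The peptide-loading chain H2-DMb2 had 0.142 CPM in BMCP and 5.60 CPM in GMP (2.89 CPM once GMP 30 is removed). The cathepsin Ctss had 7.55 CPM in BMCP (4.32 CPM once BMCP 71 is removed) and 18 CPM in GMP (10.1 CPM once GMP 29 is removed). The thiol reductase Ifi30 had 4.80 CPM in BMCP (2.93 CPM once BMCP 11 is removed) and 23.9 CPM in GMP. The protease Lgmn had 1 read in BMCP and 9.24 CPM in GMP (0.0186 CPM once GMP 29 is removed).

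**Figure D3:**
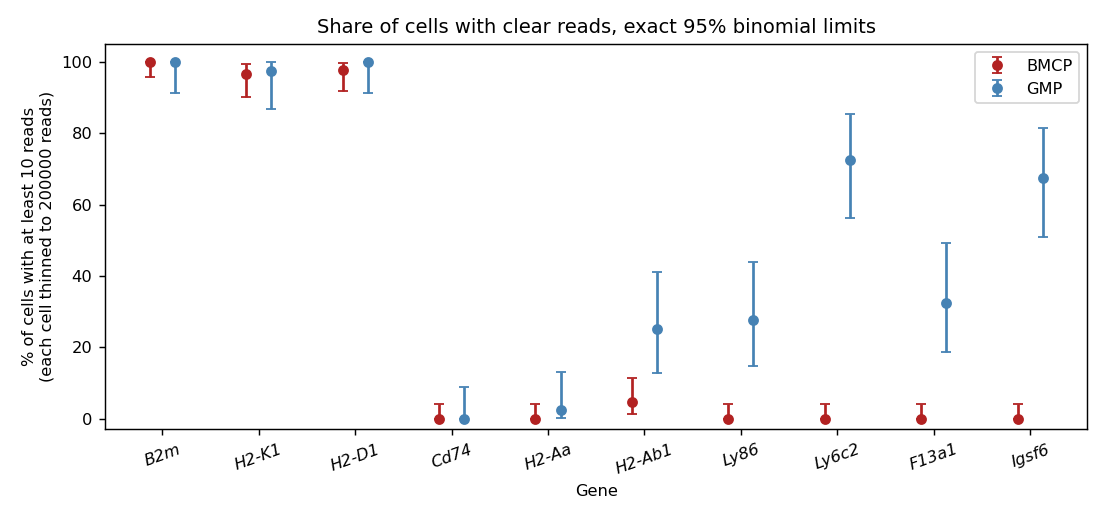
Share of cells with at least 10 reads of each gene after thinning to 200000 reads, for 86 BMCP in red on the left and 40 GMP in blue on the right, with exact 95% binomial limits as bars. B2m reaches 100% in both, H2-Ab1 4.65% of BMCP and 25% of GMP, and the last 4 genes 0 BMCP and between 27.5% and 72.5% of GMP.

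Ly6c2 (ENSMUSG00000022584, chr15:75108158-75111970, minus strand) was the most abundant of the monocyte genes in GMP by summed reads. BMCP held 12 reads, 1 in each of 12 cells, or 0.142 CPM (limits 0.0736 to 0.249), and GMP held 639 CPM (632 to 646). The BMCP level was 0.0223% of the GMP level (0.0115 to 0.0389), a log2 ratio of -9.13. Every kept GMP had a read of Ly6c2, from 0.681 to 4398 CPM around a median of 202 CPM, so it varied more within GMP than any of the class I members. At least 10 thinned reads were found in 0 of 86 BMCP, which allows a share of up to 4.20% (exact limit), and in 29 of 40 GMP (72.5%, 56.1 to 85.4). Of the 50-base words of its exons, 14.5% occur in other genes, mostly the near copy Ly6c1. Whether the 12 single reads in BMCP came from other libraries of the run was not tested. Ly6c1 itself had 0.0119 CPM in BMCP, against 3.15 CPM in GMP.

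Within GMP, Ly6c2 was graded. It was highest in GMP 33, GMP 43, GMP 5 and GMP 28, at 4398, 3234, 2859 and 2641 CPM. At the other end, 9 GMP had under 10 reads of Ly6c2, and 8 of these held at least 1000 CPM of Cpa3. None of the 9 had 10 reads of Ly86 or of F13a1, while 5 had at least 10 reads of Igsf6. Over 41 GMP, Ly6c2 had r = -0.75 with Cpa3, -0.68 with Gata2 and -0.76 (Spearman -0.74) with the summed basophil and mast cell markers. With the summed neutrophil markers it had r = 0.70, and with the summed monocyte markers 0.47. Its r was 0.48 with F13a1, 0.45 with Csf1r, 0.41 with Ly86 and 0.40 with Irf8. The 3 genes most like it among 6772 were I830127L07Rik on the same chromosome at r = 0.85, Elane at 0.77 and Prtn3 at 0.72, the last 2 being neutrophil granule proteases.

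Igsf6 (ENSMUSG00000035004, chr7:121064067-121074572, minus strand) was the second most abundant of the 4 in GMP by summed reads. By the median over GMP it was level with Ly6c2, at 205 CPM against 202 CPM. BMCP held 13 reads, 0.154 CPM, of which 10 were in BMCP 5, and 0.0358 CPM without that cell. GMP held 318 CPM (313 to 322), and the log2 ratio was -8.11. A read was found in 36 of 41 GMP, up to 1834 CPM in GMP 43 with a median of 205 CPM, and at least 10 thinned reads in 0 of 86 BMCP and 27 of 40 GMP (67.5%, 50.9 to 81.4). Over GMP, Igsf6 did not follow the other monocyte genes closely: its r was -0.02 with Ly86, 0.07 with F13a1 and 0.27 with Ly6c2. With the summed neutrophil markers Igsf6 had r = 0.45 (Spearman 0.54). With the summed monocyte markers Csf1r, Irf8, Ccr2, Ms4a6c and Fcgr1 it had r = 0.19 (Spearman -0.10). The highest cells GMP 43, GMP 27 and GMP 17, at 1834, 1664 and 1326 CPM, had no read of Ly86. The 3 genes most like it were Mfsd10, Eif4h and Zranb1, at r = 0.56, 0.55 and 0.53.

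Ly86 (ENSMUSG00000021423, chr13:37345208-37419036, plus strand) was the only one of these 4 with no read in any kept BMCP. GMP held 4216 reads, 75.9 CPM (73.7 to 78.3), in 16 of 41 cells. The log2 ratio was -6.27, and the BMCP level was at most 0.0577% of the GMP level (upper exact limit). Of the 16 GMP, 11 lay between 78.2 CPM in GMP 11 and 513 CPM in GMP 5, and the other 5 cells had 1 read each, so Ly86 was either clear or next to absent. At least 10 thinned reads were found in 0 of 86 BMCP and 11 of 40 GMP (27.5%, 14.6 to 43.9). Its receptor partner Cd180 was low, at 0.938 CPM in BMCP (0.0239 CPM once BMCP 24 is removed) and 7.08 CPM in GMP (1.38 CPM once GMP 42 is removed).

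F13a1 (ENSMUSG00000039109, chr13:36867178-37050244, minus strand) had 2 reads in BMCP, 0.0237 CPM, and 4888 reads in GMP, 88 CPM (85.6 to 90.5). The BMCP level was 0.0270% of the GMP level (0.00326 to 0.0975), a log2 ratio of -6.44. Of the GMP, 19 had a read, with the highest at 743 CPM in GMP 33, 720 CPM in GMP 1 and 523 CPM in GMP 39. At least 10 thinned reads were found in 0 of 86 BMCP and 13 of 40 GMP (32.5%, 18.6 to 49.1).

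Ly86 and F13a1 often shared a cell. Both had at least 10 thinned reads in 8 GMP, which are 8 of the 11 with Ly86 and 8 of the 13 with F13a1. Their r over 41 GMP was 0.61 (Spearman 0.53). F13a1 was the gene most like Ly86 among 6772, followed by Cnn3 and Irf8 at r = 0.57 each. For F13a1 the 3 most like were Cul4b at r = 0.67, Fdxr at 0.62 and Csf1r at 0.61. Irf8, which directs monocyte and dendritic cell fate, had at least 10 thinned reads in 9 of the 11 Ly86-positive GMP and in 19 of all 40. Ly86 also had r = 0.41 with the number of genes read per cell, and the part of this in its pattern was not tested.

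**Figure D4:**
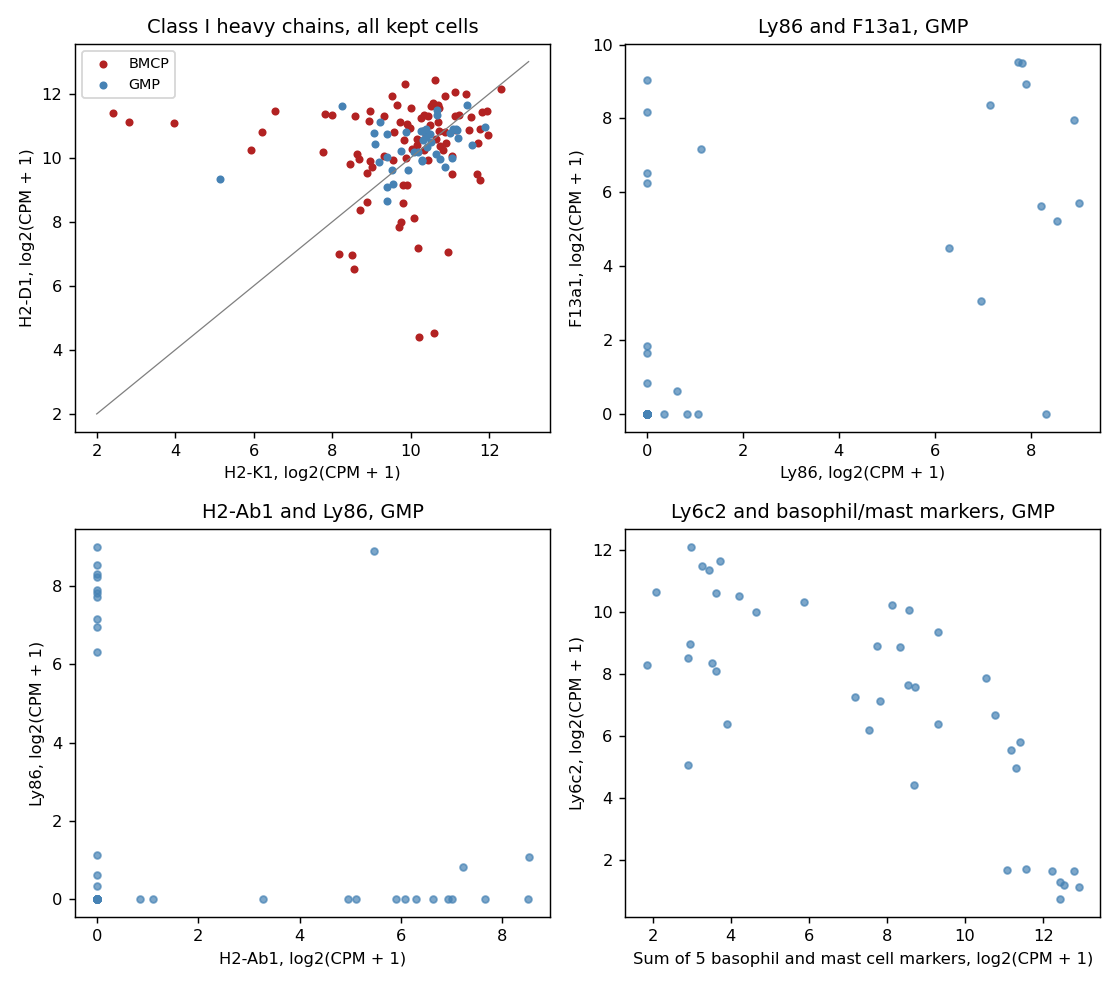
Single cells plotted for 4 pairs of measures on log2(CPM + 1) axes. The first panel sets H2-D1 against H2-K1 in 89 BMCP (red) and 41 GMP (blue) with a line of equality, and the other 3 show GMP for Ly86 with F13a1, H2-Ab1 with Ly86, and the summed basophil and mast cell markers with Ly6c2. BMCP stray from the line on both sides, Ly86 and F13a1 were both clear in 8 GMP, H2-Ab1 and Ly86 rarely share a cell, and Ly6c2 is lowest where the markers are highest (r = -0.76).

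Counted together, Ly86, Ly6c2, F13a1 and Igsf6 gave 0 genes at 10 thinned reads in each of 86 BMCP. Among 40 GMP, 3 cells had none of the 4, 11 had 1, 15 had 2, 5 had 3 and 6 had all 4. The other monocyte and dendritic cell genes ran the same way with exceptions. Of 18 listed, 14 reached 1 CPM, 10 at least 2-fold lower in BMCP, 1 higher and 3 within 2-fold, with a median log2 ratio of -3.56. Over all genes, 21% were lower and 25.8% higher. Irf8 had 0.202 CPM in BMCP (0.108 CPM once BMCP 1 is removed) and 274 CPM in GMP (log2 -7.84). Csf1r, the receptor for the macrophage growth factor, had 0.0475 CPM in BMCP, against 121 CPM in GMP (log2 -6.86). The lysozyme gene Lyz2 had 6.66 CPM in BMCP (2.17 CPM once BMCP 1 is removed) and 392 CPM in GMP (log2 -5.68).

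The gene that ran the other way was Cx3cr1, the fractalkine receptor, with 293 CPM in BMCP, in 80 of 89 cells, against 14.9 CPM in GMP, a log2 ratio of 4.21 (4.66 CPM in GMP once GMP 30 is removed). The monocyte chemokine receptor Ccr2 had 71.5 CPM in BMCP, against 68.4 CPM in GMP, a log2 ratio of 0.06 (35.6 CPM in GMP once GMP 18 is removed). Of 8 listed relatives of Ly86, Ly6c2 and F13a1, 6 reached 1 CPM, with a median log2 ratio of -1.73. Of these, 1 was at least 2-fold higher in BMCP and 4 lower, against 25.8% and 21% over all genes. Ly6e, a widely expressed gene of the Ly6 family, had reads in every kept cell, at 2440 CPM in BMCP, against 2700 CPM in GMP. Ly96, the partner of Tlr4 that is related to Ly86, had 17.9 CPM in BMCP, in 19 cells, and 1.69 CPM in GMP, all of it in GMP 28.

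Per kilobase of exon, the order of levels was B2m, H2-D1, H2-K1, H2-Ab1, Igsf6, Ly6c2, H2-Aa and F13a1 in BMCP, with Cd74 and Ly86 at 0. The BMCP order after H2-Ab1 is not resolved: it rests on 2 to 13 reads a gene, and without BMCP 5 Igsf6 was at 0.0358 CPM. In GMP it was B2m, H2-D1, H2-K1, Ly6c2, Igsf6, Ly86, H2-Ab1, F13a1 and H2-Aa, with Cd74 at 0. B2m stood at 3616 CPM per kb in BMCP and 4040 CPM per kb in GMP, with cell quartiles clear of those of the heavy chains in both. H2-D1 and H2-K1 were neighbours whose quartiles overlapped. In BMCP they ran from 378 to 994 CPM per kb for H2-D1 and from 175 to 581 CPM per kb for H2-K1, and in GMP from 387 to 710 and from 251 to 586 CPM per kb. Ly6c2 and Igsf6 overlapped in GMP, as did Ly86, H2-Ab1 and F13a1, whose lower quartiles were all 0. The GMP cell medians of Ly6c2 and Igsf6, 73.7 and 94.4 CPM per kb, stood in the reverse order.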

How the data were processed

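Per the labels' protocols, each sorted cell's polyA RNA was copied from oligo-dT with ERCC spike-ins, went through 23 PCR cycles and was read from one end over 50 bases. Since the labels mention no molecular identifiers, reads cannot be taken as separate molecules. The authors deposited raw read counts for each gene in each cell, and the submitters' processing notes name GSNAP, HTSeq 0.5.3p3 and mm10. No source used here gives the annotation release. The protocol does not mark strand, so overlapping genes cannot be told apart. Symbols, coordinates and exon lengths are from GENCODE vM21 (GRCm38), and 45143 of 46078 gene rows got a symbol.

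Cells were kept with at least 50000 nuclear-encoded counts, 1000 genes, at most 10% mitochondrial counts and at most 50% spike-in reads. This removed 11 cells. Identical counts were found in 0 pairs of cells, and no doublet caller was run. HTSeq's rows for reads in no gene, in several genes or not aligned held 15.3%, 4.57% and 29.4% of all reads in kept cells and stayed out of totals. Counts were summed per population, scaled to 1000000, and compared as log2 ratios with a pseudocount of 1 CPM over genes with at least 1 CPM in either population. Poisson limits of sums and Clopper-Pearson limits of shares are at 95%. A cell counted as clear of a gene's background at 10 reads after thinning to 200000 reads. Genes named beyond the members and the listed pathway and marker genes are the 3 with the highest Pearson r to a member, among genes with at least 20 CPM that were detected in at least 25% of the cells. The members and lists were chosen with earlier results of these data known. Alternative settings varied scaling, pseudocount, the weighting of cells, filters, depth and the block of cell numbers. The ratio step was tested on simulated counts. The tools were scipy 1.17.1, pandas 2.3.3 and numpy 2.4.6 under Python 3.11.15, and matplotlib 3.10.9 drew the figures.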

Additional observations from a re-analysis of the deposited data

Results flagged for a closer look

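Of the cells left out by the filters, 3 held a member above its level in every kept GMP, and 2 of these on at least 10 reads. BMCP 21 held 8091 CPM of B2m, from 1728 reads among 213564 counts, against a highest kept GMP of 7707 CPM, and only 23.4 CPM of H2-K1 and 60.9 CPM of H2-D1. GMP 23 held 565 CPM of Ly86, from 418 reads among 740064 counts, against a highest kept GMP of 513 CPM, with 2725 CPM of Ly6c2 and 401 CPM of F13a1. The third, GMP 35, held 416 CPM of H2-Ab1 on 2 reads among 4803 counts, against a highest kept GMP of 366 CPM. These cells entered only the alternative that kept every cell, where Ly86 had a log2 ratio of -6.41 in place of -6.27.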

How the results depend on the processing

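Under 13 alternatives, of which 12 were planned and 1 (without GMP 30) was chosen after seeing the data, the number of members at least 2-fold lower in BMCP stayed between 5 and 7, and the number higher at 0. The median log2 ratio of the members, -2.99, kept its sign. It was -2.21 with the mean of the cells' CPM, -3.42 relative to spike-ins, -5.26 with a pseudocount of 0.1 CPM, -1.34 with 10 CPM, -1.92 after thinning, -2.47 with no minimum CPM, -4.09 without each gene's highest cell and -3.98 without GMP 30. H2-Aa reversed to 0.084 without its highest cell and to 0.15 without GMP 30, since those reads lay in 1 cell. H2-K1, within 2-fold throughout, was at 0.02 without its highest cell. Relative to spike-ins the median over all genes was -0.79, and it was 0.11 with median-of-ratios scaling.

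Class I genes higher in BMCP numbered 1 in place of 2 with the mean of cells, relative to spike-ins, with a pseudocount of 10 CPM and after thinning. Class I genes lower numbered 10 in place of 3 relative to spike-ins. Class II genes higher numbered 3 in place of 5 relative to spike-ins, and those lower numbered 1 with a pseudocount of 10 CPM and 3 without the highest cell, in place of 5. Monocyte and dendritic cell genes higher numbered 2 in place of 1 with a pseudocount of 0.1 CPM, with BMCP 48 to 94 alone and without the highest cell. Beyond what each setting changes by construction, the cause was not tested. No paired analysis was possible because no label ties a cell number of one population to the same number of the other and no test was made. Because GMP form a single block of numbers, a block difference and a population difference cannot be told apart.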
